A study of Polypedilum vanderplanki with 24 samples.

Results

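Translation elongation factors are the proteins that carry the ribosome along a message, and 9 of the 17782 genes in the deposited table carry the Gene Ontology (GO) term translation elongation factor activity. The term was the rule for choosing them, and *g10339*, which encodes elongation factor 1-alpha (EF1-alpha), was named as well and carries the term itself. The genes were measured in Pv11, an insect cell line from *Polypedilum vanderplanki*, an African midge whose larvae survive near-complete drying. Pv11 cells survive drying too after incubation in concentrated trehalose, a sugar that protects dry cells. The study asked what heat shock factor 1 (HSF1), a transcription factor of stressed cells, does to gene expression on the way to this dry state, by poly(A) RNA sequencing of 4 lines before trehalose (T0) and 48 h into it (T48).

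The first line is *Hsf1*-/-; *Hsf1*-HaloTag/BlaR, called HSF1-rescue here, in which *Hsf1* was put back into knockout cells in front of the stop codon of *g7775*. The second, *Hsf1*-/-; HaloTag/BlaR, called control, carries the HaloTag and the blasticidin resistance gene BlaR at the same place without *Hsf1*. The third is the knockout *Hsf1*-/-, from which the HSF1-rescue and control lines were made, and the fourth is wild type (WT). All lines except WT carry the same unit of AcGFP1 and the zeocin resistance gene ZeoR inserted into exon 1 of *Hsf1*, and each engineered line is 1 clone grown from a sorted cell, so that a property of the clone and an effect of the edit cannot be told apart. Each of the 8 groups of line and time had 3 libraries, 24 in all.

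The authors deposited 1 value a gene and group, the mean of the 3 libraries in TPM, which is a read count divided by gene length and set to a total of 1000000 in each library. A mean alone holds neither replicate error nor depth, so the comparisons below are descriptions of group means, with no SD, no n and no test. The control and *Hsf1*-/- lines both lack HSF1, and the first was made from the second. Their difference served as a measure of how far a clone lies from its parent line. This difference does not measure WT against a clone, or 2 clones of 1 parent against each other. Its median size over all expressed genes was 0.19 on the log2 scale at T48 and 0.17 at T0, and 95% of genes lay within 0.77 and 0.69. Log2 ratios are of TPM + 1, and a gene was counted as past 2-fold where its ratio was at least 1 in size and its mean TPM at least 1 in either group. The gene model taken as *Hsf1* (*g3611*) had 0.00892 to 0.307 TPM in the 8 groups. Its lowest value was in HSF1-rescue cells at T0, where the paper reports HSF1 protein. Whether *g3611* measures *Hsf1* was not tested. It therefore does not check the labels, and the identity of the lines rests on them. In bulk RNA, fewer cells of a type and less RNA per cell cannot be told apart.

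TPM values are shares of a total, and the median gene moved between groups. For T48 over T0, the median of all expressed genes on the log2 scale was 0.08 in HSF1-rescue, 0.35 in control, 0.30 in *Hsf1*-/- and 0.53 in WT cells. For HSF1-rescue over control it was -0.34 at T48 and -0.09 at T0, and for *Hsf1*-/- over WT 0.06 at T48 and 0.29 at T0. Division of each group by a median-of-ratios factor brought all of these medians to between -0.03 and 0.01. Values called scaled have been divided in this way, and they show a gene relative to the median gene.

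In the cytosol, EF1-alpha bound to GTP brings each aminoacyl-tRNA to the ribosome, and the EF1B complex of beta, delta and gamma subunits recharges it with GTP. EF2 then moves the ribosome by a codon, and eIF5A, despite its name, acts during elongation and helps the ribosome through stretches that are slow to join. Mitochondria translate their own messages with bacterial-type factors, where EF-Tu brings the tRNA, EF-Ts recharges EF-Tu and EF-G1 moves the ribosome. The 9 genes cover all of these roles except EF2, whose gene (*g12287*) lacks the GO term in the table. They are 2 copies of EF1-alpha (*g10339* and *g11500*), EF1-gamma (*g714*), EF1-beta' (*g11783*), a gene with EF1B beta/delta domains (*g11588*), eIF5A (*g9108*), and mitochondrial EF-Tu (*g3703*), EF-Ts (*g6895*) and EF-G1 (*g5734*). The names come from the similarity searches and domains in the table. For *g11588* the table gives domains alone and no similar protein.

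On assembly Pv_5.2 the genes lie on 3 chromosomes. EF1-gamma is at chr1:5471712-5473196 on the minus strand and mitochondrial EF-Tu at chr1:27559446-27561217 on the plus strand. EF-G1 lies at chr2:11450411-11453034 (minus) and EF-Ts at chr2:19742015-19742970 (plus). The other 5 are on chromosome 3. Of these, eIF5A spans chr3:167364-168091 (plus), *g10339* chr3:8940122-8941577 (plus), *g11500* chr3:16650214-16651738 (plus), *g11588* chr3:17373111-17375108 (minus) and EF1-beta' chr3:18396558-18397357 (minus). The 2 EF1-alpha copies are therefore far apart on the same chromosome. Both list the same pair of gene models of the older assembly as counterparts, and reads that fit more than 1 place were not counted, so that the levels of both are uncertain by an amount the table does not show.

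The table also lists matches to heat shock elements (HSEs), the sites that HSFs bind as repeats of nGAAn in alternating direction, in windows of 1000 bp around start sites. Such a match was listed for 4 of the 9 genes (44.4%), against 4901 of all 17782 genes (27.6%). With the 4 motifs that the methods name, the numbers were 3 of 9 (33.3%) and 3398 genes (19.1%). The matches are printed because they are the only regulatory sequence of these genes in the data. They run 5′ to 3′ on the matched strand, with each GAA and TTC in capitals.
*g10339*: ttgtcGAAgtTTC
*g11588*, window inside the gene: ttgcaGAAgtTTC
*g11588*, window over the gene's 5′ end: tTTCtaGAAaaatct
*g11783*: cTTCtgGAAacattt
*g9108*: atgGAAga

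The match of *g10339* was to motif MA0486.2, which was listed for 12.2% of genes, at positions 467 to 479 of the plus-strand window chr3:8938797-8939796. That window ends before the first base of the gene, and the gene's other 2 windows held no match. The first sequence of *g11588* is also an MA0486.2 match (minus strand, positions 624 to 636 of window chr3:17373669-17374668). The second lies at positions 746 to 760 of window chr3:17374520-17375519 on the minus strand and is a match to MA0486.1, listed for 6.81% of genes. Inside it, at positions 747 to 759, matches to MA0486.2, MA0770.1 (listed for 11.4% of genes) and MA0771.1 (8.35%) overlap it, so that 4 of the 5 listed matches of this gene are 1 site. EF1-beta' (*g11783*) had an MA0486.1 match at positions 644 to 658 on the minus strand of window chr3:18396926-18397925. The entry of eIF5A (*g9108*), at positions 66 to 73 of window chr3:167308-168307 on the plus strand, is to the short motif MA0319.1 (10.5% of genes), which the methods do not name and which has room for 1 GAA. The deposited FIMO scores were 14.3 for the MA0486.1 site of *g11588*, 9.99 for *g11783*, 11.4 for *g9108*, and 8.97 and 8.74 for the MA0486.2 matches of *g10339* and *g11588*. No match was listed for *g11500*, the gene with the largest differences below. A match describes letters and not binding.

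EF1-alpha from *g10339* was by far the most abundant of these messages and among the most abundant of all genes, ranking 2 to 5 among all genes in every group. It had 16061 TPM at T48 and 22369.8 TPM at T0 in HSF1-rescue cells, and 30008 and 25899 TPM in control cells. In *Hsf1*-/- cells it had 25039 TPM at T48 and 23847 TPM at T0, and in WT 19188 and 21497 TPM. The highest and lowest levels of the 8 groups were thus those of the control and the HSF1-rescue lines at the same time, T48. In order of level, only the first step (control at T48 to control at T0, 0.21 on the log2 scale) and the last (WT at T48 to HSF1-rescue at T48, 0.26) were larger than the typical difference of the 2 lines without HSF1. The 5 steps between them were 0.05 to 0.16. Scaled, the order was different, with the 4 T0 groups at the top at 24672 to 27619, and HSF1-rescue (16847) and WT (16422) at T48 at the bottom. Control and *Hsf1*-/- cells at T48 lay between them at 24493 and 20686.

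The second copy, *g11500*, was the least steady of the 9 genes. It had 495 TPM at T48 and 3137 TPM at T0 in HSF1-rescue cells, and 170.0 TPM at T48 and 722 TPM at T0 in WT. The lines without HSF1 stayed closer, with 1809.6 TPM at T48 and 2431 TPM at T0 in control cells and 1562 and 2332 TPM in *Hsf1*-/- cells. Its highest value was 18.5 times its lowest, against 1.66 to 2.18 times for the other 8 genes. Between T48 and T0 the log2 ratio was -2.66 in HSF1-rescue and -2.08 in WT, where 0.588% and 1.37% of the expressed genes were at or below it. In control and *Hsf1*-/- cells it was -0.43 and -0.58, which 19.1% and 16.8% of genes were at or below. The difference between these responses was -2.23 for HSF1-rescue minus control and -1.50 for WT minus *Hsf1*-/-, and -1.94 and -1.76 after scaling. For control minus *Hsf1*-/- it was 0.15, or 0.10 after scaling.

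As a share of the TPM of both copies, *g11500* made up 2.99% at T48 and 12.3% at T0 in HSF1-rescue cells, and 0.878% and 3.25% in WT. In control cells it made up 5.69% and 8.58%, and in *Hsf1*-/- cells 5.87% and 8.91%. This share does not depend on any scaling. It was lower at T48 than at T0 in each of the 4 lines, and the 2 lines without HSF1 had nearly the same shares at both times. WT did not resemble HSF1-rescue at T0: its share was the lowest of the 4 lines, and that of HSF1-rescue the highest.

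**Figure D1:**
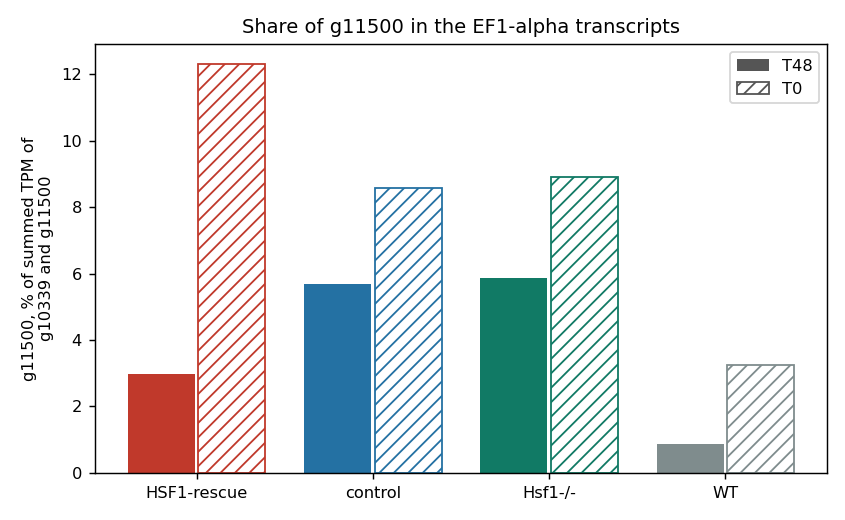
Share of *g11500* in the summed TPM of the EF1-alpha copies *g10339* and *g11500* (y axis, percent), by line, with T48 as filled and T0 as hatched bars; each bar is computed from group means and has no error bar. The bars of HSF1-rescue cells stand at 2.99% and 12.3%, those of control cells at 5.69% and 8.58%, those of *Hsf1*-/- cells at 5.87% and 8.91%, and those of WT at 0.878% and 3.25%.

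The subunits of EF1B, the exchange factor of EF1-alpha, lay well below it. EF1-gamma (*g714*) had 1752 TPM at T48 and 3266 TPM at T0 in HSF1-rescue cells, 3647 and 3741 TPM in control cells, 2899 and 2975 TPM in *Hsf1*-/- cells, and 3557 and 3817 TPM in WT. HSF1-rescue cells at T48 lay apart below the other groups, which were at 2899 to 3817 TPM. EF1-beta' (*g11783*), a catalytic subunit, had 645 and 1045 TPM in HSF1-rescue cells at T48 and T0, 875 and 1317 TPM in control cells, 764 and 1134 TPM in *Hsf1*-/- cells, and 797 and 1164 TPM in WT. It was lower at T48 in every line, by a similar log2 ratio of -0.54 to -0.70. The gene with EF1B beta/delta domains (*g11588*) had 293 and 561 TPM in HSF1-rescue cells, 433 and 545 TPM in control cells, 421 and 497 TPM in *Hsf1*-/- cells, and 366 and 544 TPM in WT. Its 4 T0 levels lay between 497 and 561 TPM, and every T48 level was below them. The last cytosolic factor, eIF5A (*g9108*), had 692 and 1052 TPM in HSF1-rescue cells, 1141 and 1148 TPM in control cells, 866 and 1042 TPM in *Hsf1*-/- cells, and 718 and 978 TPM in WT at T48 and T0. As deposited it was almost level between the times in control cells, at a log2 ratio of -0.01, but after scaling this ratio was -0.39.

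The mitochondrial factors were measured at far lower levels and had another order of groups. EF-Tu (*g3703*) had 166 TPM at T48 and 219 TPM at T0 in HSF1-rescue cells, 153 and 268 TPM in control cells, 150.3 and 309 TPM in *Hsf1*-/- cells, and 165 and 143 TPM in WT. EF-Ts (*g6895*) had 50.8 and 78.0 TPM in HSF1-rescue cells, 46.8 and 89.4 TPM in control cells, 51.1 and 101 TPM in *Hsf1*-/- cells, and 57.8 and 52.2 TPM in WT. For both genes the 4 lines were close at T48 as deposited, and at T0 WT was lowest, followed by HSF1-rescue, control and *Hsf1*-/- cells. EF-G1 (*g5734*) had 54.0 and 56.8 TPM in HSF1-rescue cells, 72.1 and 91.7 TPM in control cells, 68.1 and 91.3 TPM in *Hsf1*-/- cells, and 65.6 and 58.7 TPM in WT. As deposited HSF1-rescue was the lowest line at both times, at T0 just below WT. Scaled, it was the lowest at T0 (63.2), while at T48 the 4 lines lay between 56.1 and 58.9.

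**Figure D2:**
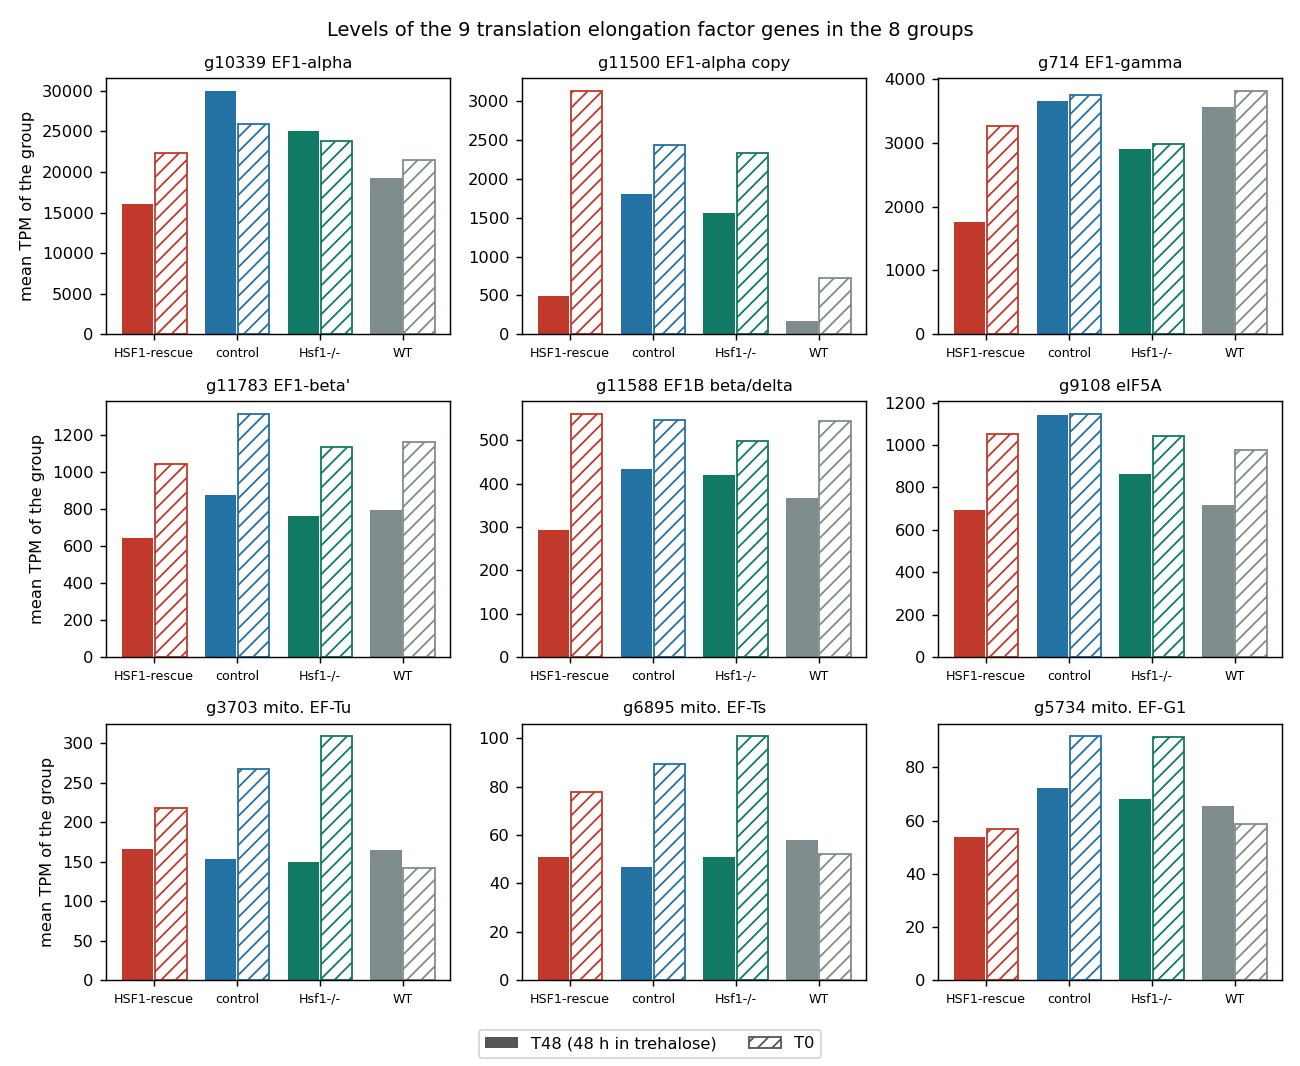
Mean TPM (y axis, linear, own scale in each panel) of the 9 genes by line, with T48 as filled and T0 as hatched bars; each bar is the deposited mean of a group and has no error bar. In the top left panel *g10339* runs between 16061 and 30008 TPM, and in the bottom row mitochondrial EF-Tu and EF-Ts have their tallest bars in *Hsf1*-/- cells at T0, at 309 and 101 TPM.

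Together the 9 genes summed to 20209.5 TPM at T48 and 31783 TPM at T0 in HSF1-rescue cells, 38186 and 35531 TPM in control cells, 31819.6 and 32329 TPM in *Hsf1*-/- cells, and 25084 and 28975 TPM in WT. They thus took 2.02% to 3.82% of all TPM, and *g10339* alone made up 70.4% to 79.5% of each sum, so that the sums follow that gene. The mitochondrial factors summed to only 253 to 501 TPM. Scaled, the sums were 21198 and 35412 in HSF1-rescue cells, 31168 and 37744 in control cells, 26288 and 33447 in *Hsf1*-/- cells, and 21468 and 37227 in WT, which puts T48 below T0 in every line.

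Ratios between genes within a group do not move with scaling. EF1-alpha (*g10339*) over EF2 was 7.59 at T48 and 6.99 at T0 in HSF1-rescue cells, 7.33 and 6.92 in control cells, 7.46 and 8.71 in *Hsf1*-/- cells, but 4.97 and 4.67 in WT. EF1-gamma over EF1-beta' was 2.72 and 3.13 in HSF1-rescue cells, 4.17 and 2.84 in control cells, 3.80 and 2.62 in *Hsf1*-/- cells, and 4.46 and 3.28 in WT, so it was lower at T48 than at T0 in HSF1-rescue cells and higher in the other 3 lines. Mitochondrial EF-Tu over EF-Ts, a factor and its own exchange factor, kept between 2.73 and 3.28 in all 8 groups, the narrowest range of the 7 ratios computed. The widest was that of the EF1-alpha copies, where *g10339* was 7.13 to 113 times *g11500*.

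At T48 all 9 genes were below T0 in HSF1-rescue cells as deposited, 8 of 9 in control and in *Hsf1*-/- cells, and 6 of 9 in WT. The exceptions were *g10339* in the 2 lines without HSF1, at 0.21 and 0.07 on the log2 scale, and the 3 mitochondrial factors in WT, at 0.15 to 0.21. As deposited, 5 of the 9 genes (55.6%) were lower in all 4 lines, against 13.6% of the 8963 expressed genes. They are the cytosolic genes other than *g10339*. Relative to the median gene, all 9 were lower at T48 in all 4 lines, against 26.8% of genes. The genes of the ribosome itself shared this direction: 101 of 122 expressed genes for structural constituents of the ribosome were lower in all 4 lines after scaling, and 75 as deposited. For initiation factors the scaled number was 10 of 24, for tRNA aminoacylation genes 8 of 33 and for termination factors 2 of 5.

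The median log2 ratio of the 9 genes was -0.61 in HSF1-rescue, -0.34 in control, -0.42 in *Hsf1*-/- and -0.16 in WT cells, or -0.70, -0.72, -0.74 and -0.75 after scaling. The medians of the ribosome genes were -0.66, -0.49, -0.54 and -0.45 in the same order of lines, or -0.74, -0.87, -0.86 and -1.03 after scaling. For initiation factors the medians were -0.14, -0.07, -0.27 and 0.57, of which scaling turned the last to -0.02. Genes of tRNA aminoacylation, the charging of tRNAs, were at 0.00, 0.57, 0.52 and 0.22 as deposited and at -0.07, 0.19, 0.21 and -0.28 scaled. Termination factors were at -0.02, 0.01, -0.14 and 0.51 as deposited and at -0.10, -0.36, -0.44 and -0.06 scaled. Past 2-fold in HSF1-rescue cells was 1 gene, *g11500*, lower (6.7% of all genes were lower past 2-fold), or 2 after scaling (7.99%), with *g11588* at -1.02. None was past 2-fold in control cells (32.7% of genes in either direction), but EF-Tu and EF-Ts were lower past it after scaling, at -1.18 and -1.29 (13.7%). In *Hsf1*-/- cells EF-Tu was lower past 2-fold at -1.03 (8.26%), and scaled EF-Ts was too, at -1.28 (13.8%). In WT *g11500* was lower past 2-fold as deposited (4.61%), and after scaling eIF5A (-1.03), *g11588* (-1.15) and EF1-beta' (-1.13) were as well (11.0%).

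**Figure D3:**
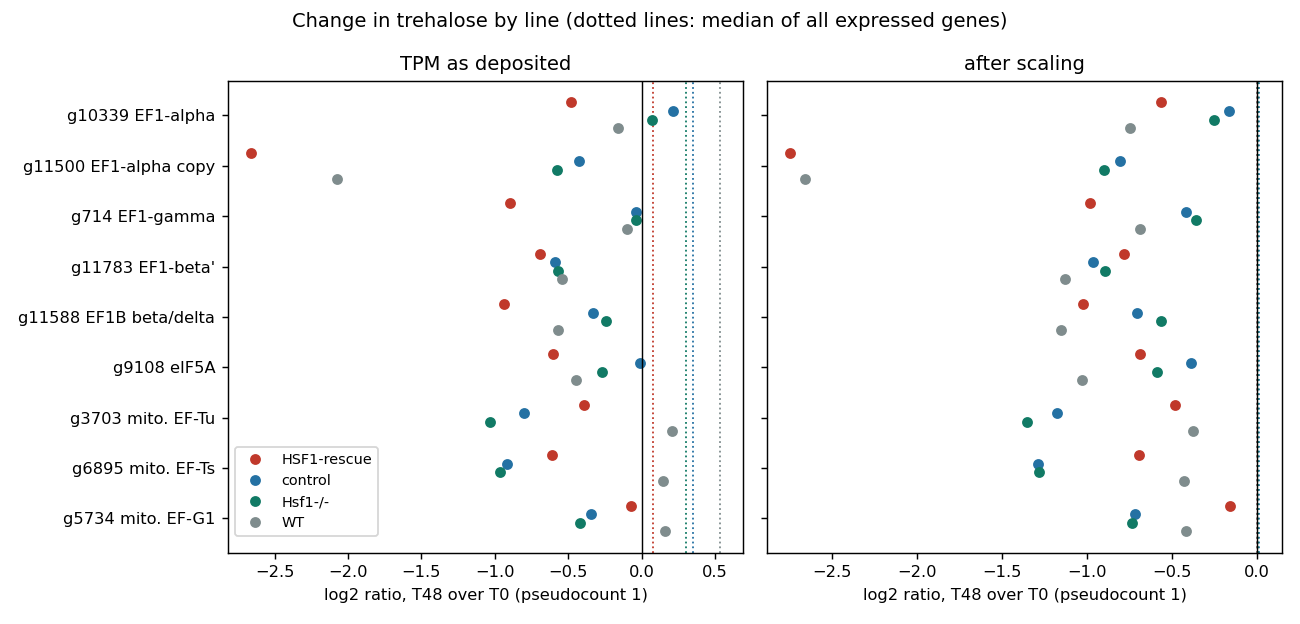
Log2 ratio of T48 over T0 (x axis, TPM + 1) of each gene, 1 point a line of cells, as deposited (left) and after scaling (right); dotted lines mark the median of all expressed genes in each line, 0.08 to 0.53 as deposited. After scaling every point lies below 0, and *g11500* lies far out at -2.75 in HSF1-rescue cells and -2.66 in WT.

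HSF1-rescue and control cells differ in the presence of *Hsf1* at the insert, and at T0 their elongation factors were close. No gene was past 2-fold at T0 (6.98% of genes were), and the ratios ran from -0.68 for EF-G1 to 0.37 for *g11500*. At T48, 7 of 9 genes were lower in HSF1-rescue cells, which as deposited 70.1% of all expressed genes were, and 7 of 9 were lower after scaling, against 50.8% of genes. EF1-gamma, at -1.06, and *g11500*, at -1.87, were lower past 2-fold (14.2% of genes). After scaling only *g11500* was, at -1.51 (6.94%), and EF1-gamma was at -0.70. The next largest ratios were -0.90 for *g10339* and -0.72 for eIF5A, or -0.54 and -0.36 after scaling. EF-Tu and EF-Ts, at 0.12 each, were the only members higher in HSF1-rescue cells, and at 0.48 and 0.47 after scaling.

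The 6 cytosolic genes had a median of -0.81 at T48 and -0.16 at T0, or -0.45 and -0.09 after scaling. The ribosome genes, at -0.35 and -0.14, followed the median gene, and after scaling their median was -0.01 at T48. A T48 median as low as that of the cytosolic factors was that of the tRNA aminoacylation genes, at -0.81, or -0.48 scaled. Initiation factors were at -0.18 and termination factors at -0.20, and scaling turned these to 0.18 and 0.16. These list medians were set side by side without a test.

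The same question can be put to *Hsf1*-/- and WT cells, which share no library with the other pair. The pairs are not independent, because HSF1-rescue and control cells were both made from the *Hsf1*-/- clone. At T0, 2 of 9 genes were higher past 2-fold in *Hsf1*-/- cells, *g11500* at 1.69 and EF-Tu at 1.11 (13.4% of genes), and after scaling *g11500* alone was, at 1.38 (7.26%). EF-Ts and EF-G1 followed at 0.94 and 0.63. After scaling the 3 mitochondrial factors were at 0.32 to 0.80, while every cytosolic one except *g11500* was at -0.67 to -0.16. At T48 only *g11500* was past 2-fold, at 3.19 (4.32% of genes were higher past it), where 99.8% of genes were at or below it. This is a 9.18-fold higher level in *Hsf1*-/- cells. The other 8 genes were within -0.29 and 0.38 of WT, *g10339* being the highest of them.

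**Figure D4:**
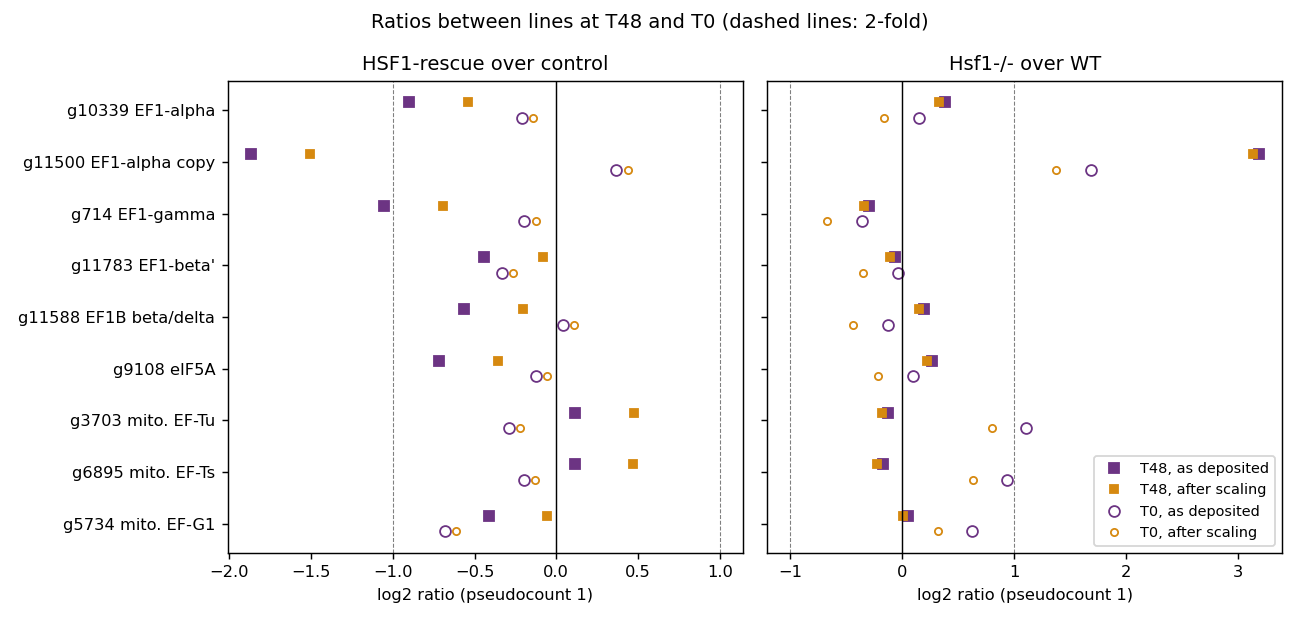
Log2 ratios (x axis, TPM + 1) of HSF1-rescue over control cells (left) and of *Hsf1*-/- over WT cells (right) for each gene, with T48 as filled squares and T0 as open circles, as deposited (purple) and after scaling (orange); dashed lines mark 2-fold. In the left panel *g11500* stands at -1.87 at T48 and 0.37 at T0, and in the right panel it stands at 3.19 and 1.69.

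Set against these, the control and *Hsf1*-/- lines, neither of which has HSF1, differed by -0.13 to 0.40 at T48 and by -0.20 to 0.33 at T0 over the 9 genes. None was past 2-fold at either time, and of all genes 2.67% and 1.78% were. For *g11500* the ratio was 0.21 at T48 and 0.06 at T0.

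The change in trehalose of a line with HSF1 was also set against that of the line without it. Most of the cytosolic and mitochondrial genes among the 9 lay on opposite sides. After scaling, HSF1-rescue minus control was below 0 for 5 of the 6 cytosolic genes, at -0.30 for eIF5A to -1.94 for *g11500*, with EF1-beta' at 0.19. It was above 0 for EF-Tu (0.70), EF-Ts (0.60) and EF-G1 (0.56). WT minus *Hsf1*-/- was below 0 for all 6 cytosolic genes, at -0.24 to -1.76, and above 0 for EF-Tu (0.98), EF-Ts (0.85) and EF-G1 (0.32). Over all genes, 48.1% of the HSF1-rescue minus control and 49.8% of the WT minus *Hsf1*-/- differences were below 0, with medians of 0.03 and 0.01. Leaving out the lowest and the highest 5%, genes lay between -1.27 and 1.24 in the first pair of lines and between -1.42 and 1.31 in the second, and of the 9 genes *g11500* alone lay outside, in both. As deposited the mitochondrial genes were at 0.27 to 0.41 and 0.57 to 1.24, and EF1-beta' was at -0.11 and 0.02. The difference of the 2 lines without HSF1 was -0.15 to 0.20 after scaling. The grouping by compartment was made after these values were seen. Related genes without the GO term did not all divide in this way after scaling, in the same order of pairs. A gene similar to the cytosolic release factor eRF3 (*g5235*) was at 0.67 and 0.71, and mitochondrial EF-G2 (*g711*) at 0.56 and -0.14. EF2 (*g12287*), at -0.43 and -0.81, and the mitochondrial initiation factor IF-2 (*g1021*), at 0.27 and 0.79, did divide so.

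**Figure D5:**
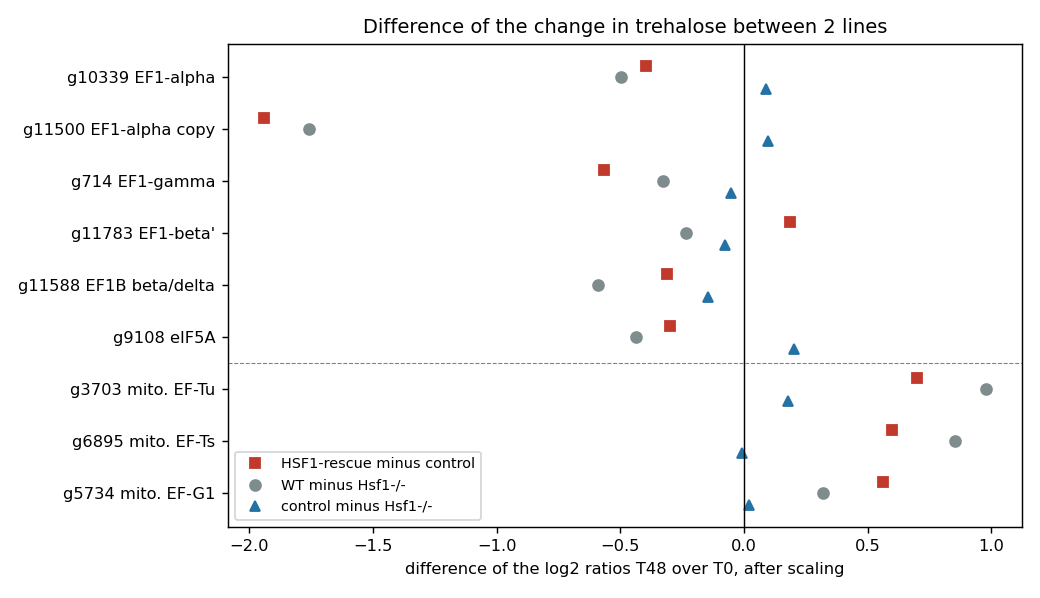
Difference between 2 lines of their scaled log2 ratios T48 over T0 (x axis) for each gene, as HSF1-rescue minus control (squares), WT minus *Hsf1*-/- (circles) and control minus *Hsf1*-/- (triangles); a dashed line separates the 6 cytosolic genes above from the 3 mitochondrial ones below. Squares and circles lie below 0 for the cytosolic genes except the EF1-beta' square at 0.19, and above 0 for the mitochondrial genes, while the triangles stay between -0.15 and 0.20.

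The authors sorted the genes that they called differentially expressed into 4 clusters by their pattern in the HSF1-rescue and control groups. The shares given here are over all 17782 genes, of which only 8963 reached 1 TPM in any group. No cluster was given for 66.6% of all genes, while all 9 elongation factors have one. Of the 9 elongation factors, 8 are in cluster 2, which holds 6.37% of all genes, and EF-Ts is in cluster 1. Since the clusters were formed from these same groups, this describes the table and tests nothing. Across the 8 group means, the genes most like *g10339* in log2(TPM + 1), among 4285 genes of at least 10 TPM in every group and outside the 9, were *g16978* (a CCCH-type zinc finger gene, Pearson r = 0.98), *g16921* (similar to phosphoacetylglucosamine mutase, 0.96), *g10029* (a thioredoxin-domain gene, 0.95), *g544* (with a peptidyl-tRNA hydrolase domain, 0.93) and *g777* (of the BCP1 family, 0.93). Among the elongation factors themselves eIF5A was nearest to *g10339* (0.84) and EF-Ts farthest from it (0.16). After scaling these were 0.94 and 0.53, and EF-Tu was farthest (0.50). EF-Tu and EF-Ts had a correlation of 0.97 with each other. These correlations rest on 8 group means that share their scaling.

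A further 17 genes have elongation factor wording in their description or domains without the GO term, and 16 of them reached 10 TPM in some group. EF2 (*g12287*, chr3:22169380-22173107, plus strand), the factor that moves the ribosome, had 2117 TPM at T48 and 3202 TPM at T0 in HSF1-rescue cells, 4095 and 3744 TPM in control cells, 3354 and 2737 TPM in *Hsf1*-/- cells, and 3857 and 4599.7 TPM in WT. Its ratio of HSF1-rescue over control was -0.95 at T48 and -0.23 at T0, close to -0.90 and -0.21 of *g10339*. The likeness did not extend to *Hsf1*-/- over WT as deposited. There EF2 was lower in *Hsf1*-/- cells at both times, while *g10339* was higher, at 0.38 at T48 and 0.15 at T0. GTP-binding protein 1-like *g1693* (chr1:12585209-12587162, minus strand), a relative of EF1-alpha by its GTP-binding domains, was higher at T48 than at T0 in all 4 lines, as deposited and after scaling. It had 167 TPM at T48 and 114 TPM at T0 in HSF1-rescue cells, 678 and 109 TPM in control cells, 541 and 104 TPM in *Hsf1*-/- cells, and 526 and 247 TPM in WT. At T48 its log2 ratio of HSF1-rescue over control cells was thus -2.01, or -1.65 scaled, while that of *Hsf1*-/- over WT cells was 0.04, or -0.01 scaled. Before trehalose, at T0, the first ratio was 0.07, or 0.14 scaled, and the second was -1.24, or -1.55 scaled.

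The other 14 peaked at 14.9 to 191 TPM. They are the factor eIF5B (*g7155*), genes similar to the release factor eRF3 (*g5235*) and to HBS1 (*g9652*), which acts on stalled ribosomes, the mitochondrial initiation factor IF-2 (*g1021*) and EF-G2 (*g711*), which splits ribosomes in mitochondria. A gene similar to EF-Tu (*g10328*), the selenocysteine-specific factor (*g7558*), GTP-binding protein 2 (*g11148*), a component of the U5 small nuclear ribonucleoprotein of the spliceosome (*g3792*), a gene with both methyltransferase and GTP-binding domains (*g10802*), a gene of the ribosomal protein S6 family (*g9658*) and 3 genes with EF-G domains or wording (*g6606*, *g8897* and *g8899*) complete them. The median ratio of all 17 was -0.62 for HSF1-rescue over control cells at T48 and -0.26 at T0, or -0.28 and -0.20 after scaling. Another 5 genes with such wording belong to transcription and were set aside.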

How the data were processed

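Poly(A) RNA of 24 libraries was read in 150 bp pairs. The authors removed adapters with Trimmomatic, used Hisat2 for alignment to the Pv_5.2 genome assembly, flagged duplicates with Picard, and obtained counts from HTSeq 0.6.0, which left out reads fitting more than 1 place. They converted these counts to TPM and deposited group means. For HSE matches the authors ran FIMO at p under 0.0001 on windows of 1000 bp and deposited its score and p-value; the matches are to 5 motifs, and the methods name 4. Lines repeated for several matches (25248 in all) were reduced to 17782 genes.

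Ratios were computed as log2(TPM + 1) in Python 3.11.15 with pandas 2.3.3, over genes of at least 1 TPM in either group. Median-of-ratios factors over 8873 genes above 0 in all groups ran from 0.778 (WT at T0) to 1.23 (control at T48). The code was tested on simulated data. A group mean allows no test, so the fold of 2 is a description. The genes, the lists set beside them and the rule for naming genes (all 9 members; related genes of at least 10 TPM; the 5 genes most correlated with *g10339*) were chosen with earlier results of these data known. Positions are 1-based. TPM itself keeps no depth. Alternatives were a pseudocount of 0.1, no minimum TPM or one of 5, a fold of 1.5, scaling, a total without the 10 most abundant genes, the list without *g10339*, and fewer motifs. Scaled ratios of single genes were added after seeing the data. The authors' 6-cluster assignment was not used, and the library values and read numbers that come with the paper were not used here.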

Additional observations from a re-analysis of the deposited data

How the results depend on the processing

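No paired analysis was possible because the table holds group means alone, and for the same reason no library could be left out. A value counted as moved where it shifted by more than 0.17 on the log2 scale, the median difference of the lines without HSF1, or a count by over 1.5 times. A pseudocount of 0.1, no minimum TPM and a minimum of 5 moved no count or median of the 9 genes. The number of members with an HSE went to 3 with the motifs named in the methods, against 4. Scaling moved the count past 2-fold to 2 in HSF1-rescue, 2 in control, 2 in *Hsf1*-/- and 4 in WT cells for T48 over T0, against 1, 0, 1 and 1, and to 1 against 2 both for HSF1-rescue over control at T48 and for *Hsf1*-/- over WT at T0. The medians moved to -0.72 in control, -0.74 in *Hsf1*-/- and -0.75 in WT cells for T48 over T0, to -0.20 for HSF1-rescue over control at T48, and to -0.16 against 0.15 for *Hsf1*-/- over WT at T0, where the sign turned. Without *g10339* the last was 0.36. At a fold of 1.5 the counts were 6 in HSF1-rescue, 3 in control and 2 in *Hsf1*-/- cells for T48 over T0, 4 and 1 for HSF1-rescue over control at T48 and T0, and 4 for *Hsf1*-/- over WT at T0. The scaled sums that moved were 31168 (control, T48), 26288 (*Hsf1*-/-, T48), 21468 (WT, T48) and 37227 (WT, T0). On a total without the 10 most abundant genes, of which *g10339* is 1, the sums at T48 and T0 were 24203 and 37948 in HSF1-rescue, 44558 and 41821 in control, 37292 and 38014 in *Hsf1*-/- and 29897 and 36778 in WT cells. That total moved no count or median. No ratio of a single member past 2-fold changed its sign. Spread between libraries and depth cannot be read from the deposited group means, and the library values and read numbers that come with the paper were not used here.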
